A study of Homo sapiens with 14 samples.

Results

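Binding sites of the transcriptional corepressor SKI were compared between 2 ChIP-seq libraries of HL60 cells, one from CRISPR/Cas9 control cells and one, replicate 2, from unmodified cells. HL60 is an established human acute myeloid leukaemia line, grown here in RPMI with 10% serum, and in ChIP-seq the DNA crosslinked to a protein (here with 1% formaldehyde) is pulled down with an antibody and sequenced. The regions described are list-only peaks: peaks of one deposited list that no peak of the other list overlapped by 1 bp or more. They numbered 8306 of the 28450 peaks of both lists, with 4304 control-only peaks (30.7% of the control list) and 4002 replicate 2-only peaks (27.7% of the replicate 2 list).

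The series also holds a second SKI library of unmodified cells (replicate 1) and a RUNX1 library of unmodified cells, whose peak lists were used as further readouts. The 3 SKI libraries were made with the anti-SKI antibody sc-9140. The labels do not say whether the CRISPR/Cas9 control cells were 1 clone or a pool, nor which guide they carried. There was 1 library a side, so a difference between the cells and a difference between the libraries cannot be told apart, and no effect of editing was tested.

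SKI does not bind DNA by itself. It is brought to chromatin by partners, among them the SMAD proteins that carry TGF-beta signals to the nucleus, and it recruits the NCOR and SIN3 corepressors with histone deacetylases. RUNX1 is a transcription factor that blood cell formation depends on, and its binding sites in myeloid cells lie largely at enhancers.

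The lists were of similar length and differed in peak shape. The control list held 14019 peaks with a median width of 691 bp and a median of 61 tags (sequenced fragments) per peak. The replicate 2 list held 14431 peaks with a median width of 472 bp and a median of 56 tags. Tags within peaks summed to 1256986 and 1109384, and in replicate 1, with 54841 peaks, to 10241078. Near the lineage markers, the lists held peaks at 8 (control) and 9 (replicate 2) of 10 myeloid genes, such as MPO, AZU1 and PRTN3 of the neutrophil granule. They held peaks at 2 and 2 of 8 lymphoid genes (CD3E and CD79A in both) and at 0 and 1 of 6 erythroid genes (KLF1).

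The RefSeq promoters of the genes with the strongest list-only promoter peaks differed in base composition, and they are printed first. For each list these are the 3 protein-coding genes whose list-only peaks had the highest −log10 p among peaks within 300 bp of a transcription start site (TSS) and which the RefSeq table holds, except that YWHAZ, which ranked above NAMPT, is not printed. Each is the 250 bases before the RefSeq start (GRCh38.p14), 5′ to 3′ on the gene's strand. A RefSeq start need not be the start used in the peak lists, and peak positions (hg19) were not converted. The printed bases therefore need not lie under the peak. At TGIF1 they begin at 3411759 (GRCh38.p14) and the peak begins at 3447459 (hg19). Capitals mark the RUNX core (TGTGGT or TGCGGT) or the SMAD box (CAGACA), searched on both strands.
SMAD7, control-only, chr18:48950966-48951215, minus strand: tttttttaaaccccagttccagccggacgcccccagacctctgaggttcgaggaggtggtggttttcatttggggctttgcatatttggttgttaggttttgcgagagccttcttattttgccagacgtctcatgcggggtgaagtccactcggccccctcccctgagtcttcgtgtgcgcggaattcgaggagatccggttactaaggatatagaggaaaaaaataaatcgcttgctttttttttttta
ZNF580, control-only, chr19:55640752-55641001, plus strand: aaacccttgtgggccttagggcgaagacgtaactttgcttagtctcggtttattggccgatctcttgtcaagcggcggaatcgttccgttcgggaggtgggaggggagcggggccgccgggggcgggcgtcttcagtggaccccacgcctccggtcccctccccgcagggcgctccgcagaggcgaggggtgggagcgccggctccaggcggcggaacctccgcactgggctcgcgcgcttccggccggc
P2RY10, control-only, chrX:78945141-78945390, plus strand: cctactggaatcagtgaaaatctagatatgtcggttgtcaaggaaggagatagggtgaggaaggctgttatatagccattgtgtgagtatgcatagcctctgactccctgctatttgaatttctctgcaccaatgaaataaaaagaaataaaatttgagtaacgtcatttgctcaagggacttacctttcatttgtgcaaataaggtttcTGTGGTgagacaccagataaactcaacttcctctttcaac
TGIF1, replicate 2-only, chr18:3411759-3412008, plus strand: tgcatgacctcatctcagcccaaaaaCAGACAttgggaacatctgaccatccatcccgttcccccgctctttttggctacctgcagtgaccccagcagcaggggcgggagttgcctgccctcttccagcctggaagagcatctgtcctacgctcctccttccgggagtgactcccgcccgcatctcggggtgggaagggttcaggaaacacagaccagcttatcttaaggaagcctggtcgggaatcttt
ZNF236, replicate 2-only, chr18:76822307-76822556, plus strand: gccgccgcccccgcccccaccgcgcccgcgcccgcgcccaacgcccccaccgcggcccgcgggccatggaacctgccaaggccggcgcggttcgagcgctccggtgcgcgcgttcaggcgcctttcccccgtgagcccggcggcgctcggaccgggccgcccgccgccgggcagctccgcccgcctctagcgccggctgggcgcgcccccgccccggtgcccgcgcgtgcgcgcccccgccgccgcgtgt
NAMPT, replicate 2-only, chr7:106284984-106285233, minus strand: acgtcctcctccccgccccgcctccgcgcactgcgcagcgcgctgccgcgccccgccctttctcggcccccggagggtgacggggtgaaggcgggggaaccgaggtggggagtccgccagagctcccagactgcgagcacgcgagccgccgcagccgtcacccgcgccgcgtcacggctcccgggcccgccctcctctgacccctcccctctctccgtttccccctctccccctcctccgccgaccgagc

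The GC content of these 6 promoters ran from 39.2% at P2RY10, a G protein-coupled receptor gene, to 85.6% at ZNF236, a zinc finger gene. Among the 6 printed sequences, a RUNX core was found in that of P2RY10 alone, and a SMAD box in that of TGIF1 alone. The lists behind them were alike in these letters. Of 923 genes with a control-only peak within 300 bp of the TSS, 760 (82.3%) matched a RefSeq promoter, and 15.7% of these held a RUNX core and 10.5% a SMAD box. For replicate 2-only peaks 1199 of 1413 genes (84.9%) matched, with 15.4% and 9.59%. Across the 15843 protein-coding promoters of the RefSeq table the shares were 15.3% and 11.5%.

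The promoters of the sets differed in GC content and in GC-rich motifs. The median GC content was 64.4% for control-only, 66.4% for replicate 2-only, 66.4% for shared control and 62.4% for all promoters. Whether the motif shares differ beyond GC content was not tested. A GC box (GGGCGG, the motif of SP1-type factors) was found in 65.0% of control-only promoters (95% Wilson interval 61.5 to 68.3), in 71.5% of replicate 2-only promoters (68.9 to 74.0) and in 56.0% of all 15843. An ETS core (CCGGAA) was found in 20.4% (17.7 to 23.4), 26.4% (24.0 to 29.0) and 19.3% of them. Genes with shared control peaks lay at 68.6% and 25.3%, closer to the replicate 2-only set for the ETS core. Intervals here and below cover counting error only, and a match is a description of the letters, not a binding site.

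List-only peaks were the weaker peaks of both lists. The 95% Wilson interval of their share was 29.9% to 31.5% in the control list and 27.01% to 28.5% in the replicate 2 list. The median fold enrichment, the authors' own ratio of ChIP over background, was 9.40 for control-only peaks and 13.29 for shared control peaks. For replicate 2-only peaks it was 7.95, against 11.61 for shared ones. Control-only peaks held a median of 44 tags (quartiles 37 and 57) and shared control peaks 75 (51 and 123). Replicate 2-only peaks held 42 (37 and 52) and shared ones 65 (47 and 100).

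Widths followed the list a peak came from more than whether it was shared. Control-only peaks had a median width of 599 bp, wider than the 500 bp of shared replicate 2 peaks. Replicate 2-only peaks had a median width of 422.5 bp and shared control peaks 750 bp. Where 1 control peak overlapped exactly 1 replicate 2 peak (8750 pairs), the control peak was wider by a median factor of 1.43 and held 1.08 times the tags.

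The list-only share fell steadily with strength. In the weakest decile of the control list by −log10 p, 58.0% of peaks were control-only, and in the strongest 1.93%. In the replicate 2 list the shares ran from 56.3% to 0.831%. Many list-only peaks of replicate 2 were near the threshold of listing, at a −log10 p of about 5: 41.5% of them were under 10, against 14.5% of its shared peaks. Among control-only peaks 11.4% were under 10, against 3.62% of shared ones. Of all peaks, 6.01% in the control list and 21.97% in the replicate 2 list were under 10. The lists therefore differed as a whole in how far above the threshold their peaks stood, shared peaks included.

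**Figure D1:**
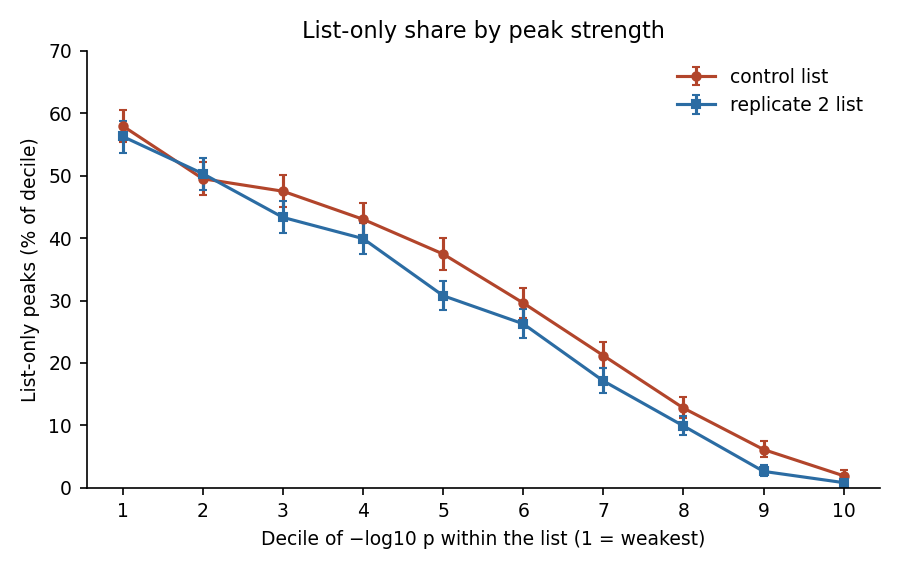
Share of peaks that were list-only (y axis, % of the decile) by decile of −log10 p within each list (x axis, 1 is the weakest), for the control and the replicate 2 list, with 95% Wilson intervals as bars. Both lines fall from above 55% in decile 1 (58.0% and 56.3%) to under 2% in decile 10 (1.93% and 0.831%).

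Most list-only peaks lay far from any peak of the other list. The median gap to the nearest peak of the other list was 25726 bp for control-only and 21738 bp for replicate 2-only peaks, and 513 (11.9%) and 494 (12.3%) lay within 1000 bp of one. At the edge of the rule, 59 control-only peaks had a gap under 100 bp (median 44 tags and fold 7.90), and 34 shared control peaks overlapped by at most 100 bp (median 41.5 tags and fold 6.56). For replicate 2 these numbers were 87 peaks (44 tags, fold 7.37) and 55 peaks (45 tags, fold 7.52). Peaks on either side of the edge had similar tag counts.

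Nearly all list-only peaks of both lists were present in the longer replicate 1 list. Of the control-only peaks 4212 (97.9%) overlapped a replicate 1 peak and 92 did not, and of the replicate 2-only peaks 98.5% did and 61 did not. Shared peaks were present at 97.3% and 97.0%, so presence in that list did not separate list-only from shared peaks. The enrichment in replicate 1 did: the overlapping replicate 1 peak had a median fold of 35.6 (quartiles 21.6 and 55.5) at control-only peaks and 27.3 (19.4 and 41.4) at replicate 2-only peaks. At shared peaks the medians were 53.3 and 53.6. Replicate 1 is also a library of unmodified cells, and in it the control-only sites had the higher median fold of the 2 list-only sets. Among peaks that the lists place at a TSS (class defined below) the medians were close, at 27.28 for control-only and 25.21 for replicate 2-only peaks. Outside that class they were 42.17 and 30.62. The sets also differed in their share of TSS peaks, as given below.

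With lists held to equal length, the list-only share between the 2 unmodified libraries lay between those of the control with each of them. When the 14019 peaks of highest −log10 p were taken from each SKI list, the list-only share pooled over both directions was 29.3% for control and replicate 2. It was 26.5% for the 2 unmodified replicates and 23.3% for control and replicate 1. At this length the lists reached down to a −log10 p of 5.006 in control, 5.762 in replicate 2 and 112.3 in replicate 1. Pairs with replicate 1 therefore set only its strong peaks against nearly whole lists. Ranked by fold enrichment instead, the shares were 29.4%, 38.3% and 34.1%, and the unmodified pair had the highest. In the 5000 peaks of highest fold they were 38.1%, 38.0% and 36.8%, so the order of the pairs depended on the ranking and length. The 3 pairs share libraries, so these shares are not independent. In single directions the share reached 31.7% for control peaks missing from replicate 2 and 32.0% for replicate 1 peaks missing from replicate 2.

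**Figure D2:**
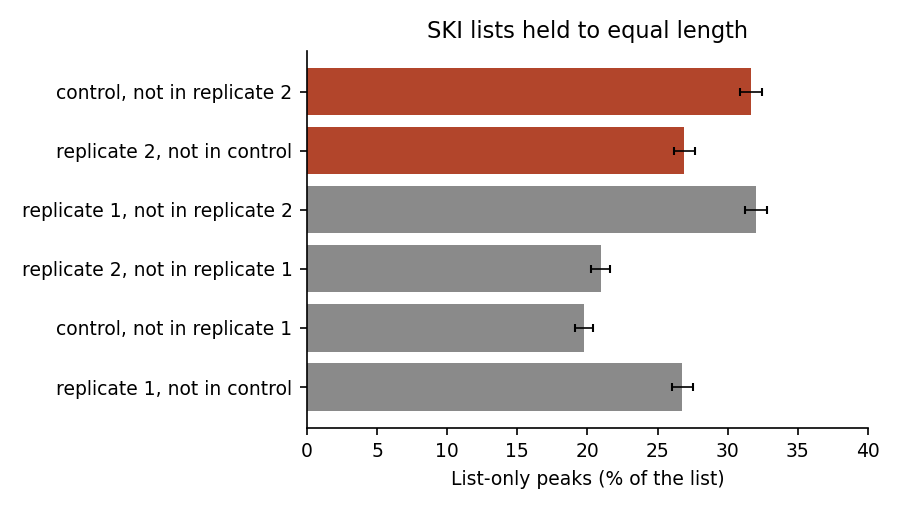
Share of peaks without an overlapping peak in the other list (x axis, % of the list) for each ordered pair of the 3 SKI lists (y axis), with every list cut to the 14019 strongest peaks by −log10 p; error bars are 95% Wilson intervals. The control and replicate 2 bars (31.7% and 26.9%) lie within the range of the other 4, from 19.7% to 32.0%.

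Control-only peaks lay less often at TSSs than replicate 2-only peaks. In the lists, the header sets the class TSS at 1250 bp and the class upstream at 5000 bp, and peaks of the upstream class carry distances of either sign. The TSS class held 1778 control-only peaks (41.3%, 39.8 to 42.8) and 2234 replicate 2-only peaks (55.8%, 54.3 to 57.4). Shared peaks lay between, at 51.0% and 51.1%. Introns held 29.6% of control-only and 18.8% of replicate 2-only peaks, and intergenic sequence 19.5% and 15.5%. Peaks over 50 kb from a TSS made up 6.09% (5.41 to 6.84) of control-only and 2.42% (1.99 to 2.95) of replicate 2-only peaks.

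The nearest genes of control-only peaks were less often protein-coding than those of replicate 2-only peaks. A protein-coding gene was nearest to 66.3% of control-only peaks (64.9 to 67.7) and 72.2% of replicate 2-only peaks (70.8 to 73.5). Over all peaks of the control and replicate 2 lists it was 68.6% and 70.6%. Pseudogenes were nearest to 9.55% and 7.52%, lincRNAs (long intergenic non-coding RNAs) to 9.01% and 8.25%, and miRNA genes to 2.74% and 1.82%. Over all peaks these shares were 8.36% and 7.59%, 8.91% and 8.61%, and 2.25% and 1.98%. Small nuclear RNA genes were nearest to 1.67% (1.33 to 2.10) and 0.825% (0.588 to 1.16), against 1.59% and 1.29% of all peaks. The control-only share was thus near that of its whole list, and the replicate 2-only share was below that of its own. Many of the nearest genes were bound in both lists: 39.96% of control-only and 37.3% of replicate 2-only peaks had a nearest gene with a shared peak as well. List-only peaks in both directions occurred at 532 genes, 14.6% of the 3649 genes with control-only and 15.4% of the 3463 with replicate 2-only peaks.

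RUNX1 peaks were found at control-only SKI peaks more often than at replicate 2-only peaks. A RUNX1 peak of unmodified cells overlapped 783 control-only peaks (18.2%, 17.1 to 19.4) and 230 replicate 2-only peaks (5.75%, 5.07 to 6.51). When peaks counted as shared only with summits within 250 bp, the shares were 17.7% and 8.85%, so the size of the difference depended on the overlap rule. Control-only peaks were also wider (median 599 bp against 422.5 bp), and an overlap of 1 bp or more depends on width. Among shared peaks, 773 control peaks overlapped 2 or more replicate 2 peaks, and 132 replicate 2 peaks overlapped 2 or more control peaks. The part of width in the RUNX1 shares was not tested. Shared peaks had a RUNX1 peak at 32.1% and 30.9%. Seen from the RUNX1 side, 20.1% of the control peaks with RUNX1 were control-only and 6.67% of the replicate 2 peaks with RUNX1 were replicate 2-only. SKI peaks with RUNX1 were therefore list-only less often than the 30.7% and 27.7% of all peaks, and more so in replicate 2.

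The difference in RUNX1 overlap was present in every position class. In the TSS class 7.71% of control-only and 2.86% of replicate 2-only peaks had a RUNX1 peak, and outside it 25.6% (23.9 to 27.3) and 9.39% (8.12 to 10.8). In introns the shares were 26.6% and 9.85%, and in intergenic sequence 26.4% and 10.7%. Where RUNX1 was present its own enrichment was similar, with a median RUNX1 fold of 18.1 at control-only, 16.3 at replicate 2-only and 20.8 at shared peaks.

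**Figure D3:**
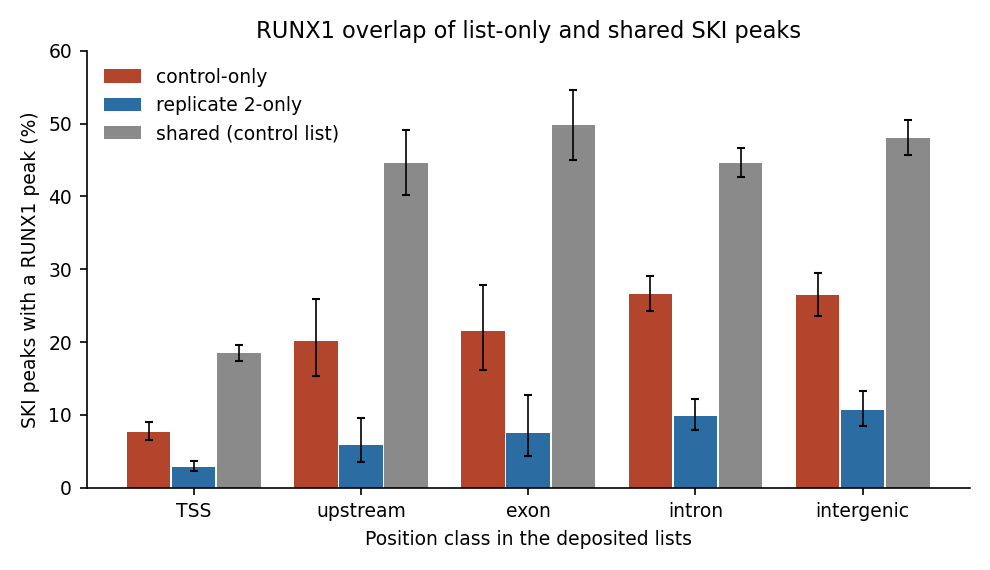
Share of SKI peaks overlapped by a RUNX1 peak of unmodified cells (y axis, %) by position class (x axis), for control-only, replicate 2-only and shared control peaks; error bars are 95% Wilson intervals. Control-only bars stand between the others in each class, as in introns with 26.6%, 9.85% and 44.6%.

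SKI enrichment in replicate 1 moved with RUNX1 overlap and differed between the list-only sets, so the shares were also read within quartiles of replicate 1 fold. Outside the TSS class, control-only peaks had RUNX1 at 12.9%, 21.7%, 35.8% and 39.1% from the lowest quartile (fold up to 28.36) to the highest (over 70.39). Replicate 2-only peaks had it at 4.65%, 11.8%, 15.0% and 14.2%. In the TSS class the shares were 3.20%, 8.20%, 14.9% and 21.6% against 2.07%, 2.88%, 5.49% and 4.35%. The control-only share was the higher in all 8 strata, although the Wilson intervals overlapped in the lowest TSS stratum (2.24 to 4.55 and 1.43 to 2.99). Peak width was not held equal within the strata.

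The strongest control-only peaks lay at SMAD7, the inhibitory SMAD that TGF-beta signals induce and that limits them. The stronger one (chromosome 18, 46477038 to 46479955, hg19) had a fold of 114.4 and 1623 tags. The other (46474277 to 46477019), whose deposited distance to the TSS was −194 bp, had a fold of 40.66, 833 tags and a RUNX1 peak of fold 21.52. Both had a −log10 p of 310, a value that 267 peaks of the control list share. Neither had an overlapping peak in replicate 2, where the nearest lay 9362 and 6601 bp away, or in replicate 1. The lists did hold other SMAD7 peaks: an intronic one had a fold of 42.99 and 384 tags in control, 33.62 and 264 in replicate 2, and 45.9 and 968 in replicate 1.

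TGIF1, a homeodomain repressor of SMAD targets, had the strongest replicate 2-only peak. It lay 36 bp from the TSS (chromosome 18, 3447459 to 3450360, hg19) with a fold of 37.54, 771 tags and a RUNX1 peak of fold 8.24. The control list held 1 peak at the gene, of fold 3.73 and 52 tags, at a gap of 1358 bp. Replicate 1 held no peak overlapping the replicate 2 one and listed a weaker peak of fold 27.05 and 153 tags in the intron nearby. Strong peaks that a list lacks are not confined to these genes: of 298 control peaks with a −log10 p over 300, 26 had no peak in replicate 1 and 2 had none in replicate 2. Of 90 such replicate 2 peaks, 7 had none in replicate 1 and 1 had none in control. Absence from a list is not absence of tags, and any filter the authors applied to the lists is not given in the sources used here.

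The other strong control-only peaks were mostly away from promoters and present in replicate 1. Among the 12 of highest −log10 p, 3 were in the TSS class, 5 were intergenic, and 10 were in replicate 1 with folds of 40.62 to 102.82. An intronic peak of DNAJC17, a J-domain cochaperone gene, had a fold of 45.5 and 184 tags, with a fold of 70.28 in replicate 1. CEACAM1, a cell adhesion receptor of granulocytes, had an intronic peak of fold 43.16 and 134 tags, with 40.62 in replicate 1. CTNND1, which encodes p120 catenin, had an exonic peak of fold 41.43 and 174 tags, with 75.39 in replicate 1. Peaks nearest the miRNA genes MIR4671 and MIR139 had folds of 26.23 and 31.21.

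Strong control-only peaks at promoters often lay close to a peak of the other list. At VIM, which encodes the intermediate filament vimentin, the peak 566 bp from the TSS had a fold of 36.11 and 172 tags in control. It overlapped a replicate 1 peak of fold 186.99 and a RUNX1 peak of fold 93.31, and the nearest replicate 2 peak lay 908 bp away. At PPARG, a lipid-sensing nuclear receptor, the control-only peak had a fold of 22.26 and 135 tags, and a replicate 2 peak lay 139 bp away. CASK, a scaffold kinase gene, and ARID3A, a transcription factor gene of B cells, had folds of 20.18 and 17.23 with gaps of 890 and 638 bp.

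Of the control-only peaks without a replicate 1 peak, the strongest after SMAD7 were weaker by far. SPAG5, a mitotic spindle gene, had one 67 bp from its TSS with a fold of 24.43 and 83 tags. An intronic peak of IGSF9B, an adhesion molecule gene, had a fold of 17.97 and 74 tags. A peak nearest FCGR2A, an Fc receptor gene of myeloid cells, at a deposited distance of −49657 bp, had a fold of 6.86 and 186 tags. A peak nearest the miRNA gene AC068570.1 had a fold of 44.61 and 83 tags.

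The replicate 2 list had a lower median −log10 p over all its peaks than the control list (16.975 against 27.216). The strong replicate 2-only peaks were also lower in −log10 p than the control-only ones. The 12 of highest −log10 p reached down to 67.3, against 135 for the 12 in control, and 9 of the 12 were in replicate 1 with folds of 42.91 to 100.98. At NOTCH2NL, a NOTCH2-related gene with near-identical copies among which reads can be split, the peak 11 bp from the TSS had a fold of 21.99 and 491 tags and was not in replicate 1. At MIR99B, a miRNA gene, the fold was 28.86 with 167 tags, and 100.98 in replicate 1. AFAP1, an actin filament adaptor, had an intronic peak of fold 46.98 and 87 tags, with 99.26 in replicate 1. A peak near PSAP, which encodes the lysosomal activator prosaposin, had a fold of 26.76 and 119 tags, and one in an intron of SORCS2, a sorting receptor gene, a fold of 23.46 and 135 tags.

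The replicate 2-only promoter peaks named after TGIF1 and NOTCH2NL had fewer tags than either. FASN, the fatty acid synthase gene, had a fold of 9.73 and 189 tags, with 27.93 in replicate 1. YWHAZ, a 14-3-3 protein gene, had a fold of 17.59 and 93 tags, with 54.51 in replicate 1 and a control peak 688 bp away. ZNF236 had a fold of 28.02 and 164 tags with a control peak 165 bp away. Without a replicate 1 peak were SLC16A3, a lactate transporter gene, with a fold of 8.80 and 133 tags, and MLLT6, a fusion partner of KMT2A in leukaemia, with 9.26 and 81 tags. The control peak nearest to the MLLT6 peak lay 4 bp away.

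The genes of SKI, its relative SKIL and RUNX1 were read one by one. Of 9 control peaks SKI had 8 shared and 1 control-only peak 754 bp from a TSS (fold 11.71, 42 tags), and no replicate 2-only peak. The SKI peak of highest fold had a fold of 149.89 and 1776 tags in control, and 100.01 and 1101 in replicate 2. Neither this peak nor the control-only one had an overlapping replicate 1 peak. Other SKI peaks did, such as an intronic one of fold 63.71 in control and 114.31 in replicate 1. SKIL, the close relative of SKI, had 1 shared peak with a fold of 238.87 in control and 218.47 in replicate 2. RUNX1 had 9 shared and 5 control-only peaks of 14 in control and 0 replicate 2-only peaks of 10, on chromosome 21, where 41.0% of control and 12.4% of replicate 2 peaks were list-only. Its control-only peaks had folds of 5.90 to 12.8 and 44 to 98 tags, all 5 overlapped replicate 1 peaks (folds 16.7 to 119.16), and 1 overlapped a RUNX1 peak (fold 19.36).

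Peaks near TGF-beta and SMAD pathway genes had list-only shares under those of all peaks by value, and the replicate 2 interval held the share of all peaks. Of 59 control peaks nearest to one of the 34 genes, 11 were control-only (18.6%, 10.7 to 30.4, against 30.7% of all peaks). Of 66 replicate 2 peaks 14 were replicate 2-only (21.2%, 13.1 to 32.5, against 27.7%). Among receptors, the type II receptor gene TGFBR2 had a replicate 2-only peak at its TSS with a fold of 11 and 42 tags, and ACVR2A a control-only one with 9.18 and 34 tags. Among the signal carriers, SMAD1, which acts for BMP receptors, had a control-only promoter peak (fold 10.62, 82 tags), and SMAD3, which acts for TGF-beta, a replicate 2-only intronic peak (15.81, 61 tags) with RUNX1. Among targets, ID3, an inhibitor of helix-loop-helix factors, had a control-only promoter peak (15.0, 71 tags), and its relative ID2 a replicate 2-only one (15.54, 52 tags).

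Haematopoietic transcription factor genes had 26 control-only peaks of 94 (27.7%, 19.6 to 37.4) and 15 replicate 2-only peaks of 92 (16.3%, 10.1 to 25.2). The interval of the first share held the 30.7% of all control peaks. The second share lay below the 27.7% of all replicate 2 peaks and its interval did not reach it. These 92 peaks lay at 25 genes. The intervals of the gene lists count peaks of the same gene as independent, which they need not be. Control-only peaks were led by KLF6, a zinc finger factor (fold 17.44, 81 tags at the promoter), and GFI1, a repressor of the granulocyte lineage (12.52, 102 tags, 23951 bp from the TSS, with RUNX1). Replicate 2-only peaks were led by IKZF1, which encodes Ikaros (intron, 21.77, 58 tags), and CEBPB, a myeloid differentiation factor (promoter, 6.84, 126 tags). IKZF1, CEBPE, ETS1, GFI1B and MYB had list-only peaks in both directions.

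Corepressor and histone deacetylase genes, some of which encode partners of SKI, had 16 control-only peaks of 53 (30.2%, 19.5 to 43.5) and 5 replicate 2-only peaks of 45 (11.1%, 4.84 to 23.5). The first share was near that of all control peaks and the second below that of all replicate 2 peaks. SIN3B, a scaffold of the SIN3 complex, had a control-only promoter peak (fold 21.53, 79 tags, with a replicate 1 fold of 15.06). CTBP2, a corepressor, had one of fold 10.15 and 74 tags. The deacetylase gene HDAC4 had list-only peaks in both directions: 4 control-only intronic peaks with folds of 8.68 to 15.35 and 3 replicate 2-only peaks with folds of 8.71 to 17.54.

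Myeloid maturation genes were near the background in both lists, with 19 of 72 control peaks (26.4%) and 18 of 76 replicate 2 peaks (23.7%) list-only. Over all peaks the shares were 30.7% and 27.7%. ITGAM, the integrin chain CD11b, had a control-only peak 6 bp from its TSS (fold 17.83, 80 tags). LYZ, lysozyme, had a replicate 2-only peak 18 bp from its TSS (9.56, 39 tags). CYBB, the catalytic chain of the phagocyte oxidase, had 3 control-only intronic peaks with folds of 14.87 to 15.93. The LYZ and CYBB peaks were below the median of 61 and 56 tags of their lists, and the ITGAM peak was above it.

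Inflammatory genes had 4 of 28 control peaks (14.3%, 5.70 to 31.5) and 10 of 39 replicate 2 peaks (25.6%, 14.6 to 41.1) list-only. Both intervals held the shares over all peaks (30.7% and 27.7%). NFKB1, an NF-kappaB subunit gene, had a replicate 2-only promoter peak of fold 21.15 and 48 tags, and IRF1, an interferon regulatory factor gene, one of 19.45 and 39 tags. Retinoic acid response genes had 7 of 43 (16.3%, 8.12 to 30.0) and 13 of 56 (23.2%, 14.1 to 35.8). The replicate 2 interval held the share of all peaks, and the control interval ended just under it. RARA, the retinoic acid receptor gene, had list-only peaks in both directions, and PML had a promoter peak in each list that did not overlap (fold 7.92 in control and 10.23 in replicate 2).

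Ribosomal protein genes had the highest replicate 2-only share of the 9 gene lists. Of their 19 replicate 2 peaks 11 were replicate 2-only (57.9%, 36.3 to 76.9, against 27.7% of all peaks). Of their 12 control peaks 3 were control-only (25%, 8.89 to 53.2, against 30.7%). The 11 had folds of 4.87 to 12.85 and 34 to 62 tags, 8 were in the TSS class, and all 11 overlapped replicate 1 peaks. They included RPL19 (TSS peak of fold 11 and 54 tags), RPS16 (6.83, 41) and RPS10 (7.90, 38). Of the 11, 4 lay on chromosome 17 and 1 on chromosome 6, chromosomes with fewer tags in control. Lymphoid and erythroid genes had 3 of 8 and 2 of 6 control peaks, and 3 of 9 and 4 of 8 replicate 2 peaks, list-only, too few for a comparison.

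**Figure D4:**
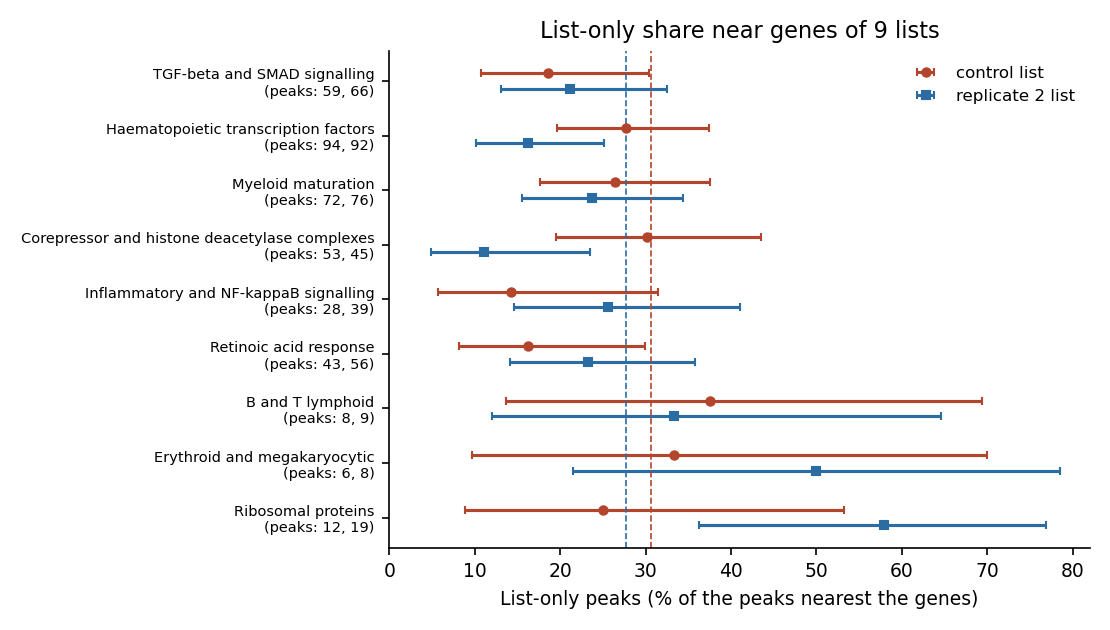
List-only share (x axis, % of the peaks nearest the genes of a list) in the control and the replicate 2 list for 9 gene lists (y axis, with the number of peaks in each), with 95% Wilson intervals and dashed lines at the share over all peaks (30.7% and 27.7%). The replicate 2 interval for ribosomal proteins lies above its line (36.3% to 76.9%) and those for haematopoietic factors and corepressors below it.

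List-only peaks were unevenly spread over the chromosomes, and the tags of shared peaks moved with them. On chromosome 22, 18.4% of control peaks (15.0 to 22.3) and 37.9% of replicate 2 peaks (34.2 to 41.8) were list-only. Chromosome 6 had 20.1% and 38.7%, and chromosome 17 had 20.03% and 36.6%. The opposite held on chromosome 21, with 41.0% (34.9 to 47.4) and 12.4% (8.27 to 18.2), on chromosome 11, with 43.2% and 17.9%, and on chromosome 8, with 51.2% and 28.7%.

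In pairs of 1 control and 1 replicate 2 peak, the log2 ratio of tags, centred on the median of all pairs, was lowest on chromosomes 22 (−0.45), 6 (−0.29) and 17 (−0.17). It was highest on chromosomes 21 (0.45), 11 (0.31) and 8 (0.24). On the 3 chromosomes under −0.1 the control-only share was the lower one, by 16.6 to 19.6 percentage points. On all 6 over 0.1 (2, 4, 8, 11, 19 and 21) it was the higher one, by 5.12 to 28.6 points. On the 14 between them it was the higher one on 13, with differences from −1.48 to 16.5 points. The largest of these was on the X chromosome, where the centred log2 tag ratio was 0.086. Control pairs against replicate 1, with the same control library, gave −0.30, −0.28 and −0.25 on chromosomes 22, 6 and 17, 0.22 on chromosome 11 and 0.17 on 21. On chromosome 8 that ratio was near the median of all pairs, at 0.0044.

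The pattern was broad within chromosomes. In 10-Mb windows with 20 or more pairs, all 10 on chromosome 6 and all 5 on chromosome 22 held more replicate 2-only than control-only peaks. These are counts, not shares of the peaks in a window. All of these windows also had a negative centred log2 tag ratio of control over replicate 2. All 8 on chromosome 11 and both on chromosome 21 had the reverse. Chromosome 17 was divided at 20 Mb. This point, and the chromosomes read in windows, were chosen after the values were seen. Below 20 Mb 33.3% of control peaks (33 of 99) and 26.3% of replicate 2 peaks (25 of 95) were list-only. These shares were near the 30.7% and 27.7% of all peaks, and the centred log2 tag ratio was 0.12. Above 20 Mb the shares were 17.8% and 37.8% with a ratio of −0.22. The 2 unmodified replicates differed by chromosome as well. Replicate 1 over replicate 2 was lowest on chromosomes 22 (−0.31) and 18 (−0.28) and highest on chromosomes 4 (0.26) and 8 (0.25). It gave 0.22 on chromosome 21, 0.15 on 11, −0.10 on 6 and −0.10 on 17. DNA copy number was not measured in the files used, and its part in these shares was not tested.

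**Figure D5:**
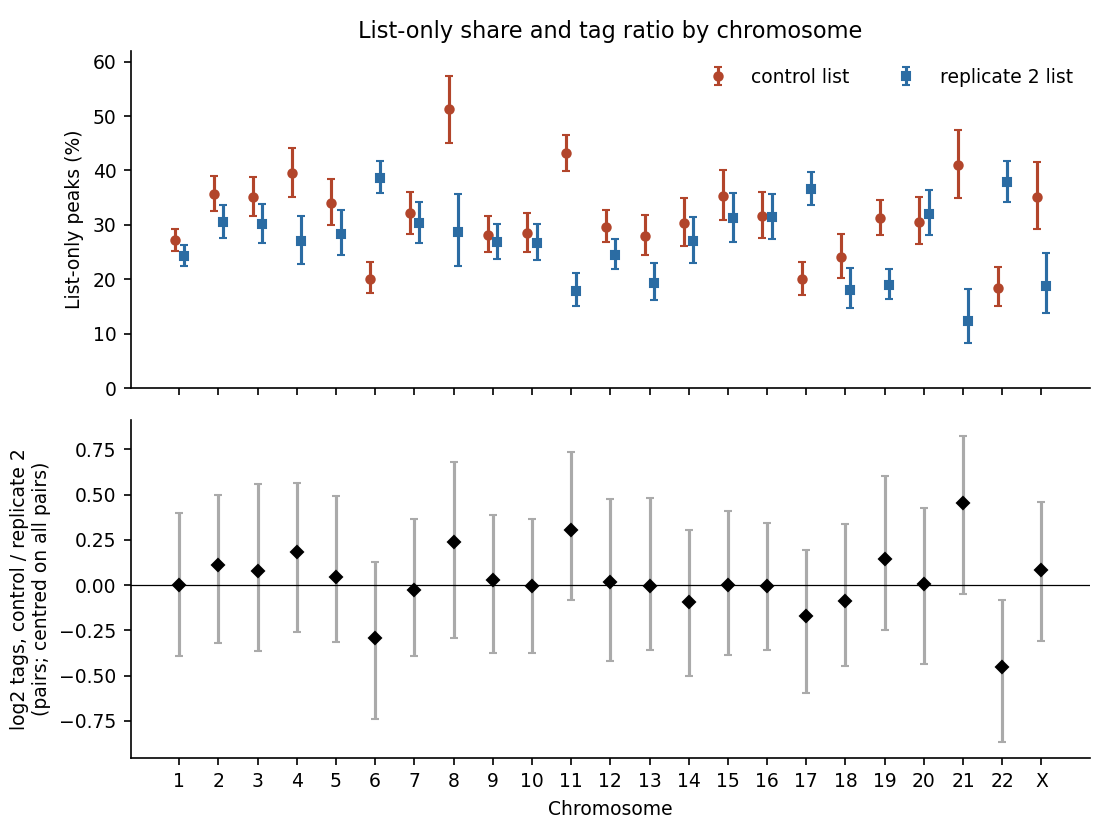
Upper panel: share of peaks that were list-only (y axis, %) on each chromosome (x axis) in the control and the replicate 2 list, with 95% Wilson intervals. Lower panel: median log2 ratio of tags, control over replicate 2, in pairs of overlapping peaks, centred on all pairs, with quartiles as bars; chromosomes 6, 17 and 22 lie lowest (−0.29, −0.17 and −0.45) and have the higher list-only share in replicate 2.

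With chromosomes 6, 8, 11, 17, 21 and 22 left out, a choice made after seeing the data, the lists kept their differences in position and RUNX1 overlap. The TSS class then held 40.2% of 3364 control-only and 56.5% of 2843 replicate 2-only peaks. A RUNX1 peak overlapped 18.5% and 5.87% of them.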

How the data were processed

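Peak lists of 4 of the 14 samples were used: SKI in CRISPR/Cas9 control cells (1 list), SKI in unmodified cells (2 lists) and RUNX1 in unmodified cells (1 list). The other 10 samples were not analysed here. Sample titles gave the groups and the replicate numbers. The submitters' processing notes name MACS 1.4, Bowtie2, bcl2fastq and deepTools, and the builds hg19 and GRCh37. What each was used for, the background library and the library depth are not stated there. There was 1 list per sample, and per the file headers it gives a deposited −log10 p-value, a fold enrichment (ratio) and a count of tags per peak. The authors' position class, nearest Ensembl gene, biotype and TSS distance were read as deposited.

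Overlaps of 1 bp or more, quartiles and Wilson intervals (95%) were computed with Python 3.11.15, numpy 2.4.6 and pandas 2.3.3, and the overlap code was tested on simulated data. No test between conditions was possible with 1 library a side. Named peaks were SKI, SKIL and RUNX1, in each list the 12 list-only peaks of highest −log10 p, the 6 highest at protein-coding TSSs and the 6 highest without a replicate 1 peak, and up to 4 genes of each gene list. Further peaks of SMAD7, TGIF1 and SKI were picked with their values in view. So were those given for RUNX1, CYBB, HDAC4, ID2, ACVR2A, TGFBR2, PML, RARA and the genes with list-only peaks in both directions. The comparison and the gene lists were chosen with earlier results of these data known. Alternatives varied the threshold, the overlap rule, the chromosomes and the list length. Promoters were matched by symbol or synonym to RefSeq tables (GRCh38.p14), which held 15843 of 20056 protein-coding genes. The promoter of YWHAZ was left out because no sequence of its chromosome is shown here. Positions of peaks are hg19 and were not converted.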

Additional observations from a re-analysis of the deposited data

How the results depend on the processing

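Across 65 alternative values, 39 stayed within the counting interval or count limit of the reported value and 26 moved. The replicate 2-only count was the most sensitive: with a −log10 p of at least 10 it was 2341 against the whole control list and 2532 against control peaks held to the same limit. In every alternative run control-only peaks were less often in the TSS class and more often with RUNX1 than replicate 2-only peaks. The TSS share of control-only peaks was 44.3% with the limit of 10 in both lists, 38.2% when a peak within 1000 bp counted as shared, and 47.5% when summits within 250 bp did; that of replicate 2-only peaks was 54.1% and 60.4% under the last pair of rules. Presence in replicate 1 ran from 97.4% to 98.6% for control-only peaks (98.6% and 98.3% with the limit in 1 or both lists, 98.4% within 1000 bp, 97.4% by summits) and from 97.2% to 99.2% for replicate 2-only peaks (99.2%, 99.1%, 98.8% and 97.2%). RUNX1 overlap was 19.5% of control-only peaks with the limit in their own list, and 6.56% (limit in both) and 8.85% (summits, against 17.7% of control-only peaks) of replicate 2-only peaks. Among the 5000 strongest peaks of each list the pooled list-only share was 32.0% for control and replicate 2, 30.9% for the unmodified replicates and 28.1% for control and replicate 1. Ranked by fold enrichment the unmodified replicates gave 38.3% and control and replicate 1 gave 34.1%, and in the 5000 peaks of highest fold the 3 pairs gave 38.1%, 38.0% and 36.8%, so their order changed with the ranking and the length. The cause of these moves was not tested. Leaving out chromosomes 6, 8, 11, 17, 21 and 22, and taking the 5000 peaks of highest fold, were chosen after seeing the data. No paired analysis was possible because the control and the unmodified group share fewer than 2 replicate numbers. No replicate could be left out, since each side had 1 library. The depth of the libraries is unknown, which limits any reading of a missing peak near the threshold.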

Other observations

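Some genes carried several list-only peaks of 1 list, a description made after the values were seen. Those named were taken from the genes with the most list-only peaks, out of 3649 genes with control-only and 3463 with replicate 2-only peaks. PTK2B, a focal adhesion kinase family gene on chromosome 8, had 7 control-only peaks beside 1 shared one. HLX, a homeobox gene of the haematopoietic lineage on chromosome 1, had 5 control-only peaks and 0 shared ones, as did PDE4D, a cyclic AMP phosphodiesterase gene on chromosome 5. BCOR, a BCL6 corepressor gene on the X chromosome, and ETV6, an ETS-family repressor gene on chromosome 12, each had 4 control-only peaks beside 7 and 8 shared ones. Of all control peaks 30.7% were control-only. The share was 51.2% on chromosome 8, 27.2% on 1, 34.0% on 5, 35.2% on X and 29.7% on 12. DNAJB12, a J-domain cochaperone gene, had 6 replicate 2-only peaks, 1 control-only peak and 7 shared ones. SOX4 on chromosome 6, RPTOR on chromosome 17 and EHMT1 on chromosome 9 had 4 replicate 2-only peaks each and 0 control-only ones. They encode a developmental transcription factor, a subunit of the mTOR complex and a histone methyltransferase. Of all replicate 2 peaks 27.7% were replicate 2-only. The share was 38.7% on chromosome 6, 36.6% on 17, 26.8% on 9 and 26.7% on 10, which holds DNAJB12.

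Shared pairs could still differ widely in rank of fold enrichment. At BCL6, a transcriptional repressor gene, an intronic peak had a fold of 5.29 and 46 tags in control and 21.85 and 57 tags in replicate 2. At LCOR, a nuclear receptor corepressor gene, the folds were 4.70 and 20.42 with 37 and 44 tags. At MRPL11, a mitochondrial ribosomal protein gene, the folds were 7.21 and 50.17 with 53 and 185 tags. In the other direction, ELOVL3, a fatty acid elongase gene, had 36.25 and 5.82 with 105 and 35 tags. At RNU2-59P, a small nuclear RNA pseudogene, the folds were 38.43 and 5.87 while the tags were 174 and 161, so fold and tags did not move together there. On chromosome 7 the median log2 fold of pairs, centred on all pairs, was −0.40 while that of tags was −0.03, and on chromosome 17 the fold went up (0.17) where the tags went down (−0.17). Fold enrichment depends on a background library that is not named in the sources used here.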
